A study of Mus musculus with 15 samples.

Results

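The cytosolic ribosomal protein genes encode the proteins that, together with ribosomal RNA, form the ribosomes of the cytosol. They were taken by symbol, as protein-coding genes named Rpl or Rps followed by a digit together with Rpsa, Rplp0, Rplp1, Rplp2 and Fau, without the Rps6k kinases and the pseudogenes. This gave 91 of the 55416 genes in the tables, 54 named for the large and 37 for the small subunit (Rpsa and Fau were counted with the small subunit). The symbols also bring in paralogs and retrogenes with a restricted expression, and 1 gene for a protein that binds Rps19, Rps19bp1.

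RNA of whole blood from 15 C57BL/6 mice was sequenced with 1 library per mouse, and the library kit is not given in the sources used here. The labels give 1 protocol to the 15 mice, transplantation of 4MOSC1 cells (a carcinogen-derived oral squamous carcinoma line of the same strain) into the tongue and 10 days of growth, so whether untreated mice carried tumors was not clear from the sources used here. Of the mice, 5 received αCTLA-4, an antibody against the T cell checkpoint receptor CTLA-4, and an early neck dissection (early ND), 5 received αCTLA-4 and a late neck dissection (late ND), and 5 had neither drug nor surgery (untreated). In the study's methods the recipients of such grafts were female mice a few weeks old. The text and a figure legend of the study differ on whether the late ND mice had been operated on before they were bled, so late ND names a group here and not a state at bleeding. Late and early ND mice share the antibody. Early ND mice differ from untreated mice in antibody and surgery together, so these cannot be told apart in that comparison. Late ND mice differ from untreated mice in the antibody, and in surgery as well only if they were operated on before they were bled. In that case antibody and surgery cannot be told apart there either.

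The deposited values were HTSeq read counts per gene, between 5527108 and 13924361 per library over the genes. Levels are given as CPM, the counts scaled to a common library size after TMM, a scaling that sets the bulk of genes equal between libraries, and differences as log2 fold changes, each with its standard error (SE) and the p-value of edgeR's quasi-likelihood test adjusted by Benjamini-Hochberg across the genes tested. Hemoglobin, neutrophil, T cell and B cell genes, markers of whole blood, were detected in each library. The hemoglobin genes took 38.3% to 64.1% of counts after early ND, 31.6% to 61.7% in untreated mice and 14.9% to 29.3% after late ND. The libraries untreated 2, late ND 2 and late ND 3 were poor in 18S ribosomal RNA sequence, at 164 to 575 TMM CPM of Rn18s-rs5 against at least 9547 in the others, so the counts below are also given without them. In bulk blood, fewer cells of a type and less RNA per cell cannot be told apart.

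Apart from the stalk, ribosomes carry these proteins in equal numbers, and cells make them in step. Their mRNAs are known for a start of C and T bases only, the terminal oligopyrimidine (TOP) motif, through which the mTOR pathway and the RNA-binding protein LARP1 control their translation and stability. In blood, reticulocytes and lymphocytes are known to be rich in these mRNAs, mature neutrophils poorer, and loss of a single copy of some of the genes in people causes Diamond-Blackfan anemia, a failure of red cell production.

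The start sequences show how far the group shares this feature. RefSeq promoter windows were found for 68 of the 91 genes, and 67 of these were placed once in GRCm39. The 30 bases around the annotated start (15 before it and 15 from it on) held an unbroken run of at least 8 C or T bases on the gene's strand in 27 of 68 genes (39.7%), against 12.1% of 15309 protein-coding genes. A run of at least 8 G or A bases, the same letters read on the other strand, was in 2.94% of the 68 windows and in 12.3% of the 15309. The windows below belong to genes on which the results turn, with the longest C or T run in capitals. The first 6 genes fell in late ND against untreated mice, and the last 3 are genes with a run of at least 8 that did not pass that test. RefSeq starts can miss the true first base by some bases, so a short run in this window says only that these letters are not there.
Rpl41 (chr10:128385023-128385052, minus strand): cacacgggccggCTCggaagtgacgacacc
Rpl38 (chr11:114559391-114559420, plus strand): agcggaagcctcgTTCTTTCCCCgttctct
Rpl39 (chrX:36348861-36348890, minus strand): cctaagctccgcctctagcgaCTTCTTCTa
Rps12 (chr10:23663093-23663122, minus strand): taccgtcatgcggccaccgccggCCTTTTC
Rplp2 (chr7:141027549-141027578, plus strand): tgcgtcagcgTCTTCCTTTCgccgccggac
Rpl36a (chrX:133486388-133486417, plus strand): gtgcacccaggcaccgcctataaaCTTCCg
Fau (chr19:6107962-6107991, plus strand): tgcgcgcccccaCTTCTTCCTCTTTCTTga
Rps27 (chr3:90120941-90120970, minus strand): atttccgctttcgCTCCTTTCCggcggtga
Rps27l (chr9:66853353-66853382, plus strand): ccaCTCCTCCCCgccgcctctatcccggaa
Rpl38, Rpl39 and Rplp2 held runs of 10, 8 and 10 bases, and Rps12 one of 7 at the very end of the window. The longest run was 3 bases in Rpl41 and 5 in Rpl36a. Fau, at 16, and Rps27 and Rps27l, at 9 each, are taken up again below.

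Most of the group was abundant in blood. Averaged over the 15 libraries, 75 of 91 genes had at least 50 CPM, and 13 were under 10. Per kilobase of mRNA (the shortest coding sequence-supported transcript of each gene), the highest was Rpl41 at 1751 CPM per kilobase, followed by Rplp1 at 1124, Rps24 at 883, Rplp2 at 855 and Rps29 at 832. Rpl41 encodes the shortest ribosomal protein, from a coding sequence of 75 bases. Rplp1 and Rplp2 encode the acidic stalk proteins, which the stalk base protein Rplp0 anchors to the large subunit. For some genes the annotated mRNA runs far past the usual one (Rpl37 has 6111 bases), so levels per kilobase are too low for those.

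The 13 low genes were of several kinds. Rpl10l, Rpl39l and Rpl3l, paralogs known from testis and muscle, were at the edge of detection. Rpl10l had no counts in any of the 15 libraries, Rpl39l had counts in 5 and Rpl3l averaged 0.41 CPM. Rpl13a at 5.92 CPM, Rps10 at 2.90 and Rpl24 at 0.38 are core genes of every ribosome, but more than 50% of their mRNA lies in another gene annotated on the same strand, as does 26% of Rpl36al. HTSeq-count leaves out read pairs that fall on more than 1 gene by default, so these levels are not to be read as low expression. The other 6 low genes were Rps19bp1, Rps4l, Rpl27rt, Rpl35rt, Rps23rg1 and Rps27rt, at 0.00584 to 3.37 CPM. Copies elsewhere in the genome matter in the same way. In the median gene 35.3% of the 100-base windows of the mRNA stand unchanged at another place, 31 of 91 genes had over 50%, and reads there align to several places and were not counted. The 325 named ribosomal protein pseudogenes together held 0.439% to 0.453% of the members' own counts (group means).

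The summed level of the 91 genes was lowest after late ND. It was 17912, 18916, 18738, 18309.6 and 15128 TMM CPM in the late ND mice 1 to 5, 21783, 22662, 17339.9, 28004 and 25824 in the early ND mice and 31788, 23403, 27802, 22619.6 and 20498 in the untreated mice. Every late ND library lay below every untreated library, and among early ND libraries only early ND 3 lay inside the late ND range. The means were 17801 ± 1544 (SD, n = 5) in late ND mice, 23123 ± 4079 (SD, n = 5) in early ND mice and 25222 ± 4532 (SD, n = 5) in untreated mice. Both subunits had their lowest mean after late ND. Large subunit genes summed to 9876 ± 848 (SD, n = 5) in late ND mice and 14526 ± 2966 (SD, n = 5) in untreated mice, and small subunit genes to 7925 ± 717 (SD, n = 5) and 10697 ± 1592 (SD, n = 5). The ratio of large to small was 1.25 ± 0.0360 (SD, n = 5) in late ND mice, 1.37 ± 0.0750 (SD, n = 5) in early ND mice and 1.35 ± 0.0877 (SD, n = 5) in untreated mice, with overlapping ranges.

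**Figure D1:**
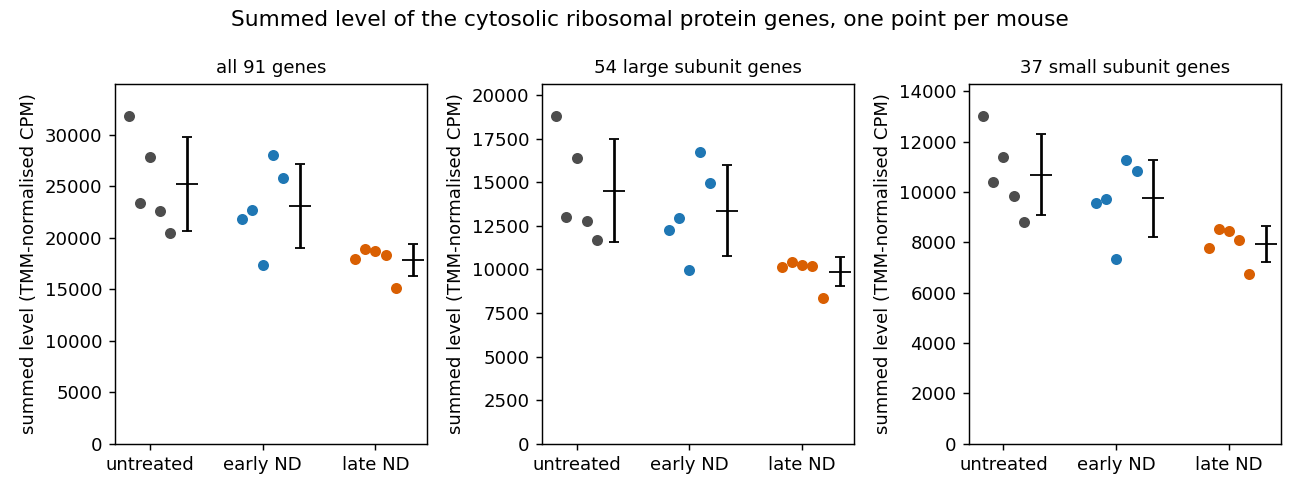
Summed TMM-normalised CPM (vertical axis, from 0) of the 91 ribosomal protein genes and of the large and small subunit genes in untreated, early ND and late ND mice (horizontal axis), with 1 point per mouse and the mean ± SD beside the points. The late ND mice lie between 15128 and 18916, below each untreated mouse, and early ND 3 at 17340 is the 1 early ND mouse among them.

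The direction of the sum depended on the scale. As a share of all gene counts, with no TMM scaling, the group took 2.81% ± 0.534 (SD, n = 5) in late ND mice, 1.92% ± 0.413 (SD, n = 5) in early ND mice and 2.0% ± 0.686 (SD, n = 5) in untreated mice, so the mean share was highest after late ND, with ranges that overlap between the groups. Of the counts that were not hemoglobin it took 3.59% ± 0.531, 3.75% ± 0.482 and 3.83% ± 0.476 (SD, n = 5 each), which differed by less than the spread between mice. Those counts still held the uneven 18S sequence, so the likeness of these shares depends on it. Rn18s-rs5 had 164 to 19108 TMM CPM in late ND, 31368 to 68711 in early ND and 575 to 249557 in untreated mice. Shares without 18S sequence were not computed. By library totals the median over all genes moved to 0.86 in late against early ND and to 0.91 in late ND against untreated mice, and 43 and 2 ribosomal protein genes were called higher and 0 lower. Relative to that median, the ribosomal protein genes tested had medians of -0.27 and -0.36, against -0.30 and -0.42 with TMM. Each level and fold change below is therefore relative to the bulk of genes.

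Late ND against untreated mice asks how blood of the group given the antibody and assigned to late surgery differs from blood of mice given neither. Of the ribosomal protein genes, 85 passed the filter on low counts, and 82 of these had a negative and 3 a positive log2 fold change, with a median of -0.42 and a range from -1.35 to 0.21. The median of the 13547 genes tested was 0.00. After adjustment 0 genes were higher and 7 were lower, 6 of the large subunit (Rpl41, Rpl38, Rpl39, Rplp2, Rpl36a and Rpl36) and 1 of the small (Rps12), where 2.01% of genes tested were called lower and 0.989% higher. At an unadjusted p under 0.05, 67 were lower and 0 higher (background 8.28% lower, 8.69% higher). In 49 of the 85, each late ND library lay below each untreated library, against 2.98% of genes tested, and 33 of the 49 belonged to the large subunit. By library totals it was 0 of 85 (background 0.133%). Without the 3 libraries poor in 18S sequence 66 of 85 did not overlap (background 6.64%), 64 were lower at an unadjusted p under 0.05, and 0 of the group and 0 of the 13051 genes tested passed the adjustment.

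Rpl41 (ENSMUSG00000093674) lies on chromosome 10 from 128383979 to 128387628 (minus strand) of GRCm39. Its level was 384, 293, 426, 439.7 and 268 CPM in late ND mice 1 to 5, 520.4, 621, 494, 1192 and 1074 CPM in early ND mice and 1545, 612, 1286, 616 and 582 CPM in untreated mice. The late ND values lay below all others, and untreated 1 and 3 and early ND 4 and 5 stood far above the rest of their groups. The log2 fold change was -1.35 (SE 0.30, edgeR adjusted p = 0.0340) against untreated and -1.08 (SE 0.27, edgeR adjusted p = 0.0420) against early ND mice. The hemoglobin share in the same 4 high libraries was 60.0%, 61.7%, 64.1% and 50.7%, against 31.6% to 50% in the other 6 early ND and untreated libraries. Their part in the result was not tested.

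Rpl38 (ENSMUSG00000057322) lies on chromosome 11 from 114559350 to 114563166 (plus strand) and is the gene altered in the Tail-short mouse. It had 94.7, 86.04, 104, 109 and 77.2 CPM in late ND and 291, 119, 219, 138 and 141 CPM in untreated mice, with no overlap, and a log2 fold change of -0.94 (SE 0.23, edgeR adjusted p = 0.0457). Rpl39 (ENSMUSG00000079641) lies on chromosome X from 36345092 to 36349130 (minus strand), and its small protein lines the tunnel through which the growing chain leaves the ribosome. It had 110.0, 101, 122, 134 and 89.8 CPM in late ND and 291, 159, 269, 152 and 150.1 CPM in untreated mice. Again no late ND mouse reached the lowest untreated one, and the log2 fold change was -0.87 (SE 0.21, edgeR adjusted p = 0.0456).

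Rplp2 (ENSMUSG00000025508) lies on chromosome 7 from 141027274 to 141034167 (plus strand) and encodes 1 of the stalk proteins that recruit elongation factors. It had 249, 248, 283, 277 and 218 CPM in late ND mice, 337, 345, 284, 539.8 and 468 CPM in early ND mice and 606, 360.2, 552, 356 and 316 CPM in untreated mice. The late ND mice lay below every mouse of both other groups, and the log2 fold change was -0.78 (SE 0.19, edgeR adjusted p = 0.0486) against untreated mice. Its stalk partners were close to it without passing. Rplp1 had 438 ± 77.7 CPM (SD, n = 5) in late ND and 765 ± 212 CPM (SD, n = 5) in untreated mice, with a log2 fold change of -0.80 (SE 0.21, edgeR adjusted p = 0.0587). Rplp0 had 695, 673, 647, 691 and 586 CPM in late ND, 843, 949.6, 727, 1556 and 1188 CPM in early ND and 1726, 929, 1431, 991 and 797 CPM in untreated mice. Its groups did not overlap with late ND either, at a log2 fold change of -0.83 (SE 0.21, edgeR adjusted p = 0.0591).

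Rps12 (ENSMUSG00000061983) lies on chromosome 10 from 23661081 to 23663173 (minus strand), a small subunit gene. Its level was 311, 255, 327, 292 and 235 CPM in late ND, 392, 374, 359, 646 and 508 CPM in early ND and 652, 398, 629.5, 409 and 365 CPM in untreated mice. It was the only small subunit gene past the threshold, at -0.78 (SE 0.19, edgeR adjusted p = 0.0474). The remaining 2 genes that passed, Rpl36a and Rpl36, lie outside the rule for named genes and were chosen after their values were seen. Rpl36a had 59.01 ± 6.62 CPM (SD, n = 5) in late ND and 93.6 ± 17.6 CPM (SD, n = 5) in untreated mice, with a log2 fold change of -0.66 (SE 0.14, edgeR adjusted p = 0.0312). Rpl36 had 103 ± 5.33 CPM (SD, n = 5) and 142 ± 15.5 CPM (SD, n = 5), with -0.47 (SE 0.10, edgeR adjusted p = 0.0350).

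**Figure D2:**
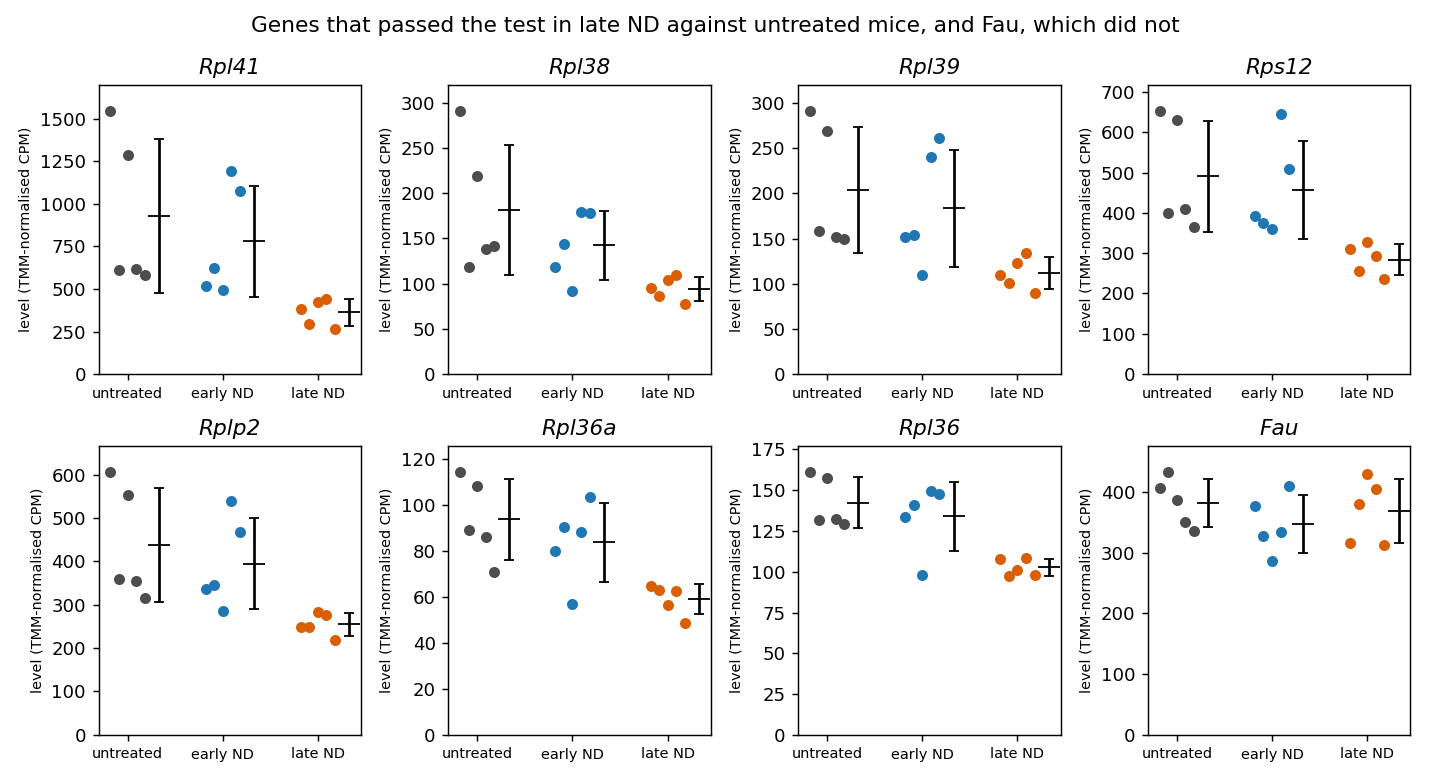
Level (TMM-normalised CPM, vertical axes from 0) of the 7 genes that passed in late ND against untreated mice, and of Fau, in the 3 groups (horizontal axes), with 1 point per mouse and the mean ± SD beside the points. The late ND mice lie below each untreated mouse in the 7 genes, while in Fau the late ND values of 313 to 430.3 CPM overlap with the untreated values of 335 to 433 CPM.

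The number of calls depended on single libraries, over all genes as well as in this group. Without any 1 of the 5 late ND mice, or without untreated 3, 0 genes of the whole table passed as lower, so the 0 ribosomal protein genes there say nothing of the group. Without untreated 1 there were 0 ribosomal protein genes among the 110 of 14150 genes called lower, without untreated 4 there was 1 among 120 of 14090, and without untreated 5 there were 18 (background 2.91% lower). DESeq2's Wald test called 54 lower and 0 higher, where it called 3.64% of genes lower and 1.9% higher. The direction did not rest on 1 library, as 81 to 83 genes stayed negative with each library left out in turn.

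The genes known from Diamond-Blackfan anemia that are described here did not pass. Rps19, the gene most often mutated, had 200.1, 244, 228, 203 and 192 CPM in late ND and 318, 298, 254, 255 and 232 CPM in untreated mice, which overlap at late ND 2, and a log2 fold change of -0.34 (SE 0.13, edgeR adjusted p = 0.207). Rpl5 and Rpl11, which carry 5S ribosomal RNA and bind the p53 regulator Mdm2 when assembly fails, had -0.46 (SE 0.14) and -0.39 (SE 0.12), each with no overlap between the groups and with adjusted p of 0.121 and 0.114 in edgeR's test. Among Rps24, Rps26 and Rpl35a, Rps24 came nearest to the threshold at -0.69 (SE 0.18, edgeR adjusted p = 0.0593). Its level was 305 ± 39.3 CPM (SD, n = 5) in late ND mice and 492 ± 117 CPM (SD, n = 5) in untreated mice. Over these 6 genes the log2 fold changes ran from -0.69 to -0.30. Rps6, whose protein is the best known substrate of the S6 kinases, had -0.38 (SE 0.12, edgeR adjusted p = 0.120), and Rpsa, also known as the laminin receptor, -0.30 (SE 0.14, edgeR adjusted p = 0.313).

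A few genes did not follow the rest. Rps27l, a paralog of Rps27 that p53 is known to induce, had 12.4, 10.6, 10.5, 14.7 and 12.3 CPM in late ND, 11.3, 7.12, 10.7, 6.13 and 12.004 CPM in early ND and 7.64, 10.5, 10.1, 11.3 and 11.8 CPM in untreated mice. Its log2 fold change was 0.21 (SE 0.14, edgeR adjusted p = 0.502) against untreated and 0.35 (SE 0.19, edgeR adjusted p = 0.283) against early ND mice, and the groups overlapped in both. Rps27 itself had -0.39 (SE 0.16, edgeR adjusted p = 0.214) against untreated mice, at 249 ± 46.5 and 328 ± 35.8 CPM (SD, n = 5 each). Fau, which encodes a ubiquitin-like protein fused to the small subunit protein eS30, had 369 ± 52.6 CPM (SD, n = 5) in late ND, 347 ± 47.9 CPM (SD, n = 5) in early ND and 382 ± 39.8 CPM (SD, n = 5) in untreated mice, with log2 fold changes of -0.05 (SE 0.14) and 0.11 (SE 0.15) for late ND against untreated and early ND mice.

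Other look-alikes were low and were not called. Rps19bp1 had 0.03 (SE 0.23) at 3.58 ± 0.536 CPM (SD, n = 5) in late ND mice, and Rpl7l1, a relative of Rpl7 linked to ribosome assembly, -0.17 (SE 0.11) at 24.9 ± 1.65 CPM (SD, n = 5). Rpl22l1, the paralog of Rpl22, had -0.31 (SE 0.15) against -0.28 (SE 0.10) for Rpl22, for which the groups did not overlap. Rpl3, the main copy of Rpl3l, had -0.39 (SE 0.12, edgeR adjusted p = 0.118), also with no overlap. Rps4l, at 1.37 ± 0.587 CPM (SD, n = 5) in late ND mice and 1.43 ± 1.00 CPM (SD, n = 5) in untreated mice, had -0.14 (SE 0.45).

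**Figure D3:**
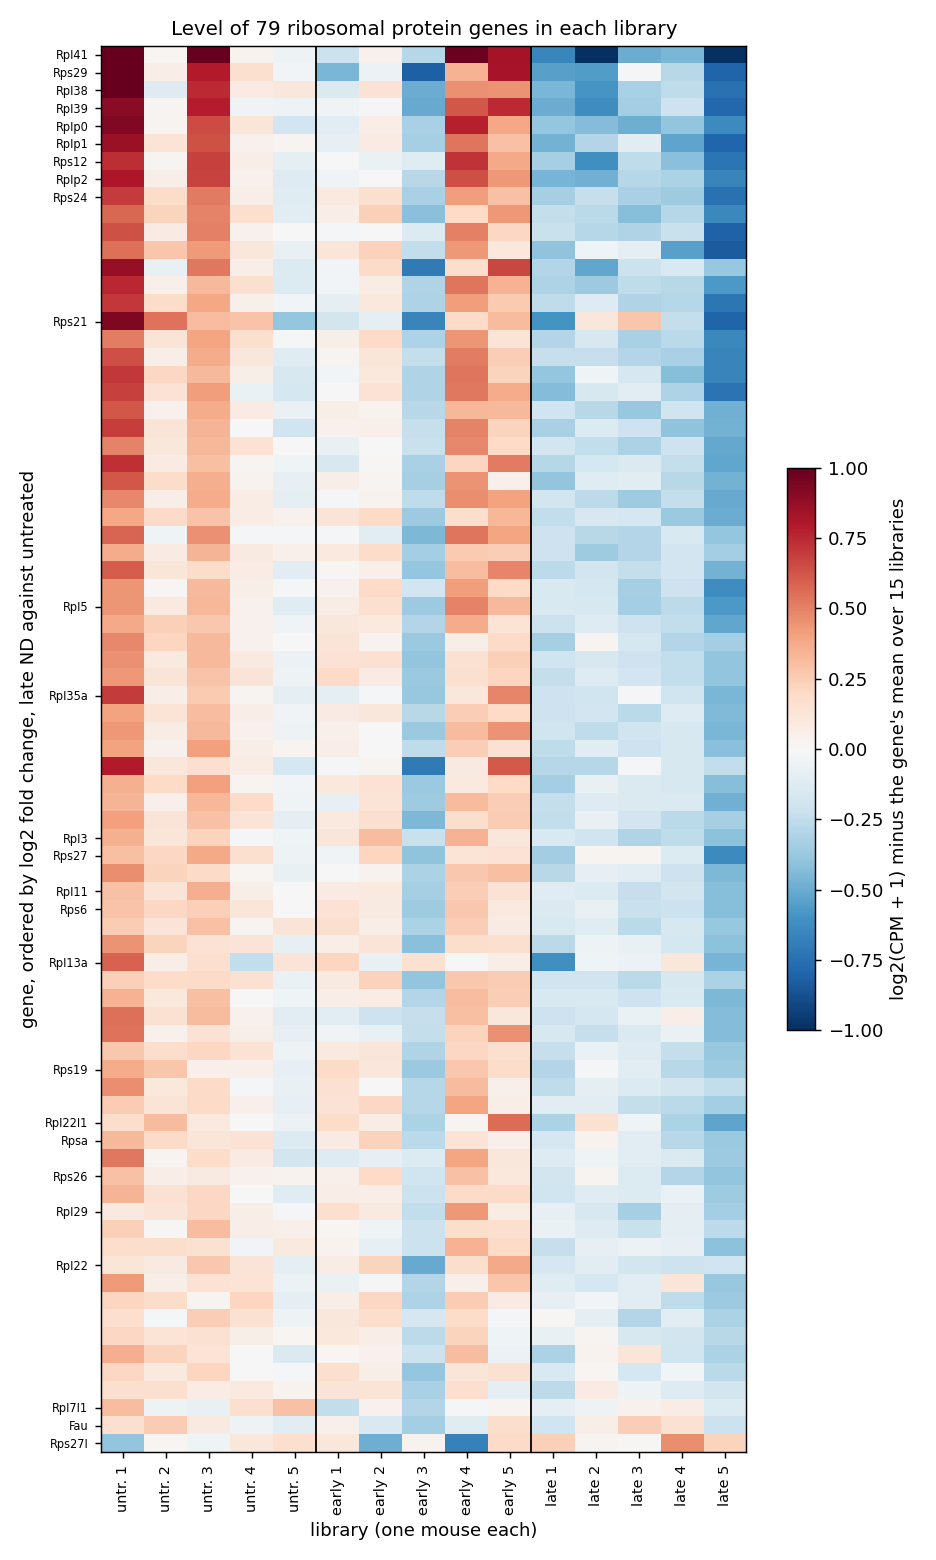
Level of the 79 ribosomal protein genes that averaged 50 counts or more (vertical axis, ordered by log2 fold change in late ND against untreated mice, with named genes labeled) in each of the 15 libraries (horizontal axis), as log2(CPM + 1) minus the gene's mean over the libraries, on a color scale cut at -1 and 1. Late ND columns are below the mean in most genes, untreated 1 and 3 and early ND 4 and 5 are above it, early ND 3 is below it, and Rps27l at the bottom runs the other way.

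Late against early ND asks whether blood differs between the groups assigned to late and early surgery under the same antibody. If the late ND mice were bled before surgery, it sets mice not yet operated on against operated mice. Of the ribosomal protein genes, 84 passed the filter, 79 with a negative and 5 with a positive log2 fold change (median -0.29, range -1.08 to 0.35), against a median of 0.01 for the 13315 genes tested. After adjustment 1 gene was lower, Rpl41, and 0 were higher, where 2.48% of genes tested were lower and 2.5% higher, 4.98% together. At an unadjusted p under 0.05, 32 were lower (background 9.33%) and 0 higher (background 14.4%). In 5 genes, Rpl41, Rplp0, Rplp2, Rps12 and Rpl17, each late ND library lay below each early ND library, against 2.93% of genes tested. By library totals this held in 0 of 84 (background 0.503%). Rpl17 was named after its values were seen.

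Rps12 came next to Rpl41, at -0.65 (SE 0.18, edgeR adjusted p = 0.0570), followed by Rplp2 at -0.60 (SE 0.18, edgeR adjusted p = 0.0667). Rplp0 at -0.65, Rpl39 at -0.69 and Rpl38 at -0.57 had adjusted p of 0.0817, 0.0837 and 0.0832 in edgeR's test. The 5 genes with a positive log2 fold change were Rps27l, Rps19bp1, Fau, Rps27rt (a retrogene of Rps27) and Rpl7l1, none of them past the threshold. Rps19 had -0.27 (SE 0.14), Rpl5 -0.43 (SE 0.16) and Rps6 -0.25 (SE 0.14), with adjusted p of 0.280, 0.135 and 0.302 in edgeR's test.

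The counts in this comparison depended on early ND 3. It had the lowest level of its group in Rpl41, Rpl38, Rpl39, Rps12, Rplp2, Rplp0 and Rplp1, and without it 19 genes passed as lower (background 4.04%), 58 had an unadjusted p under 0.05, and 59 of 84 did not overlap (background 5.44%). Without early ND 2, 4 or 5, 0 passed, where 265, 113 and 223 genes of the whole table were called lower. Without any 1 late ND mouse 0 passed as well, where 106 to 324 genes were called lower. Without the libraries poor in 18S sequence 0 genes of the whole table were called lower, so the 0 there says nothing of the group. In that setting 31 of the group were lower at an unadjusted p under 0.05, and 16 of 84 did not overlap (background 6.71%). DESeq2's Wald test called 19 lower and 0 higher, where 4.53% of genes were called lower and 5.5% higher.

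Early ND against untreated mice showed no called gene. Of the 83 genes that passed the filter, 78 had a negative and 5 a positive log2 fold change (median -0.11, range -0.54 to 0.52), and 0 passed in either direction by edgeR's test, where 0 of 12151 genes passed (0%). At an unadjusted p under 0.05 there were 0 higher and 0 lower (background 2.11% and 2.33%), and DESeq2 called 0 of the members (0.00373% of genes higher, 0% lower). Rpl41 had 780.1 ± 328 CPM (SD, n = 5) in early ND mice and 928 ± 454 CPM (SD, n = 5) in untreated mice, at -0.25 (SE 0.35, edgeR adjusted p = 0.954). Among the smallest p-values were those of Rpl7l1 at -0.24 (SE 0.12) and Rps21 at -0.45 (SE 0.23), and Rps10 at 0.52 (SE 0.28) had the highest log2 fold change, on a mean of 3.65 ± 0.692 CPM (SD, n = 5) in early ND mice. Rpl29, Rpl22l1 and Rpl3, at 0.02, 0.01 and 0.0049, were the other positive genes named by rule, and Rps27rt had -0.54 (SE 0.34). Standard errors ran from 0.12 to 0.35, so differences near the median of the group were not detectable here. In place of 78 negative genes and a median of -0.11 there were 59 and -0.03 without early ND 3, and 60 and -0.04 without untreated 1. Without untreated 2, which was poor in 18S sequence, 0 passed, where 0 of 12207 genes passed. At an unadjusted p under 0.05 there were then 1 higher and 1 lower.

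The 3 comparisons share groups of mice, so their values are not independent. For the large subunit genes tested the median log2 fold change was -0.34 in late against early ND, -0.44 in late ND against untreated and -0.11 in early ND against untreated mice, and for the small subunit -0.25, -0.39 and -0.12. Mitochondrial ribosomal proteins, which build the separate ribosome of the mitochondrion, were taken as a list of 78 genes of a like function. They had medians of 0.02, -0.08 and -0.07, and 0 of the 77, 77 and 76 tested passed in edgeR's test, with 4 higher and 2 lower at an unadjusted p under 0.05 in late against early ND, 3 and 2 in late ND against untreated mice, and 0 and 0 in early ND against untreated mice. For DESeq2 these genes were taken by symbol alone, coding or not, and 77, 77 and 82 had an adjusted p. It called 1 higher in late against early ND, 1 lower in late ND against untreated mice and 0 in early ND against untreated mice.

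**Figure D4:**
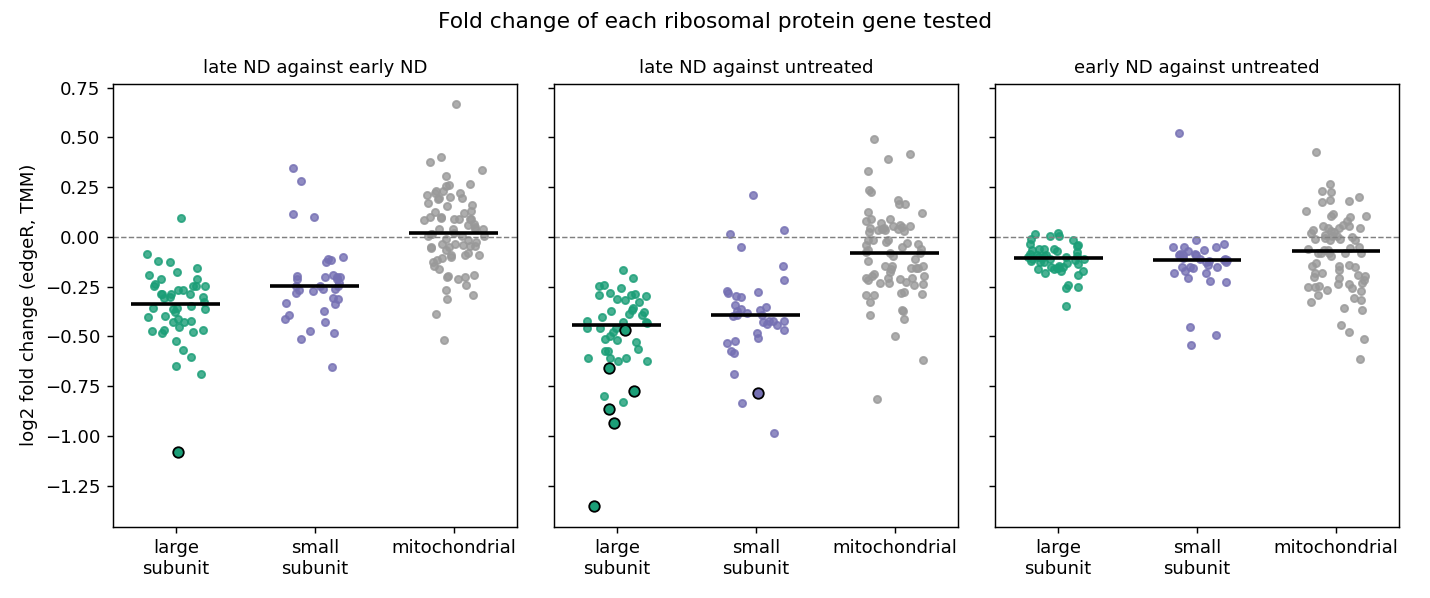
Log2 fold change (vertical axis) of each cytosolic ribosomal protein gene of the large and small subunit and of each mitochondrial ribosomal protein gene tested (horizontal axis), in the 3 comparisons, with 1 point per gene, bars at the medians and outlined points for genes past an adjusted p of 0.05. Cytosolic medians lie at -0.34 and -0.25, -0.44 and -0.39, and -0.11 and -0.12, and the mitochondrial medians at 0.02, -0.08 and -0.07.

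Among the genes with the most negative log2 fold changes were several of the shortest. The 12 genes with a coding length of at most 300 bases include Rpl41 (75 bases), Rpl39 (153), Rps29 (168) and Rpl38 (210). Rps29 had 202, 199.9, 293, 243 and 169 CPM in late ND, 214, 283, 167, 376 and 523 CPM in early ND and 758, 309, 510.4, 330.1 and 289.6 CPM in untreated mice, where late ND 3 lay above untreated 5, with a log2 fold change of -0.98 (SE 0.27, edgeR adjusted p = 0.0719) against untreated mice. The 11 short genes tested had medians of -0.27, -0.58 and -0.18 in late against early ND, late ND against untreated and early ND against untreated mice. The longer members (73, 74 and 72 tested) had -0.29, -0.41 and -0.11. In late against early ND the median of the short genes was thus not lower. The other short protein-coding genes (310, 312 and 290 tested) had medians of -0.01, -0.13 and -0.11. Across the 79 genes with at least 50 counts on average, log2 coding length and log2 fold change had Pearson's r of 0.27, 0.43 and 0.49 and Spearman's rho of 0.15, 0.29 and 0.39 in the 3 comparisons. These genes share libraries and scaling, so the r values describe these libraries only. Several short genes stood apart from this in late against early ND. Rps27l, Rps27rt and Rps21 had 0.35, 0.10 and -0.11, and Rps27, Rps28 and Rpl37 had -0.19, -0.23 and -0.27.

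**Figure D5:**
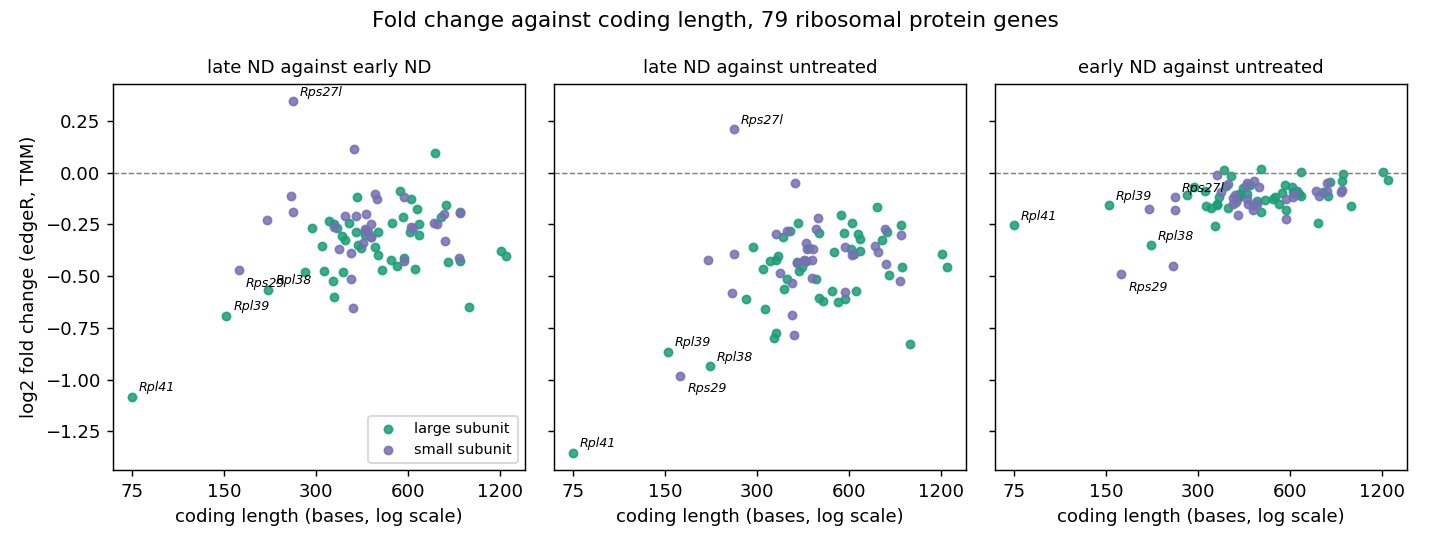
Log2 fold change (vertical axis) against coding length in bases (horizontal axis, log scale) of 79 ribosomal protein genes in the 3 comparisons, colored by subunit. Rpl41, with 75 bases, is lowest in both late ND comparisons (-1.08 and -1.35), and Rps27l, with 252 bases, is highest in both (0.35 and 0.21).

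Genes with little and with much repeated sequence had like medians. Genes with under 10% of windows repeated elsewhere had medians of -0.27, -0.40 and -0.12, and those with over 50% had -0.30, -0.42 and -0.11. Alignments to more than 1 place, which HTSeq-count leaves out, were set against all that it tallied, both counted on genes and left out. They made up 52.6% ± 5.34 (SD, n = 5) after late ND, 69.8% ± 3.55 (SD, n = 5) in early ND mice and 68.7% ± 3.90 (SD, n = 5) in untreated mice. Their part in the result was not tested.

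The genes moved together from mouse to mouse. After each gene's group means were taken out, the log2 levels of the 79 genes correlated with a median r of 0.78 over 3081 pairs, and 97.3% of pairs were positive. With the family's summed level 76 of the 79 genes had r over 0.5 and 36 had r over 0.9, while Rps27l had -0.55. These values rest on the same 15 libraries and on 1 scaling factor per library, which also moves genes together.

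Other genes of translation were described from lists. Of 18 other genes on a list of TOP mRNAs and ribosome partners, such as elongation factors, 17 were negative in late against early ND (median -0.23) and 17 in late ND against untreated mice (median -0.28). Pabpc1, the poly(A)-binding protein, had 568 ± 120.2 CPM (SD, n = 5) in late ND, 1654 ± 780.3 CPM (SD, n = 5) in early ND and 1465 ± 535 CPM (SD, n = 5) in untreated mice, and was lower at log2 fold changes of -1.51 (SE 0.31, adjusted p = 0.0225) against early ND and -1.36 (SE 0.29, adjusted p = 0.0311) against untreated mice in edgeR's test. Eef1d, a subunit of the exchange factor for elongation factor 1, passed in both as well, at -0.86 (SE 0.22, adjusted p = 0.0477) and -0.997 (SE 0.23, adjusted p = 0.0404) by edgeR. Tpt1, which encodes the abundant protein TCTP, passed against early ND at -1.03 (SE 0.26, adjusted p = 0.0418) by edgeR, while against untreated mice it had -1.22 (SE 0.30, adjusted p = 0.0507). Eef1a1 and Eef2, the factors that deliver tRNA and move the ribosome, did not pass, at -0.31 (SE 0.17, adjusted p = 0.383) and -0.23 (SE 0.15, adjusted p = 0.462) against untreated mice by edgeR.

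Genes of ribosome assembly and its control were not called by edgeR. Of 29 genes of ribosomal RNA synthesis and ribosome assembly 0 passed, with medians of -0.12 and -0.14 in the late ND comparisons and 0.00 in early ND against untreated mice, and at an unadjusted p under 0.05 there were 1 higher and 5 lower in late against early ND, 0 and 4 in late ND against untreated mice, and 0 and 0 in early ND against untreated mice. Npm1, a nucleolar chaperone of assembly, is on the list of TOP mRNAs and partners and had -0.36 (SE 0.12, adjusted p = 0.163) against untreated mice by edgeR. Of 11 genes of mTOR and Myc control 0 passed (medians 0.02, 0.05 and 0.04), among them Larp1 at 0.23 (SE 0.13, adjusted p = 0.426) and Mtor at 0.06 (SE 0.10, adjusted p = 0.828) against untreated mice by edgeR. Of 9 genes of ribosome rescue, 8, 9 and 8 were tested and 0 passed, with medians of -0.07, 0.15 and 0.12. At an unadjusted p under 0.05 the mTOR and Myc list had 1, 1 and 0 genes higher and 0 lower, and the rescue list 0, 0 and 2 higher and 1, 1 and 0 lower. DESeq2 called 2 assembly genes and 1 rescue gene lower and 1 gene of mTOR and Myc control higher in late against early ND, and 0 genes of these lists in the comparisons with untreated mice.

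Some cell type markers differed between the same groups, and others did not. The summed level of 9 erythroid markers found was 3340 to 7612 CPM after late ND, 11077 to 52194 after early ND and 9729 to 59955 in untreated mice, and of 8 tested 6 and 7 were called lower in late ND against early ND and untreated mice (medians -2.52 and -2.49). Hemoglobin genes had medians of -2.05 and -2.40. The 7 monocyte markers were positive in both, with 2 and 3 called (medians 0.67 and 0.73), and 11 neutrophil markers had medians of 1.07, 0.02 and -1.0 in the 3 comparisons, with 1 called, Mmp8, in late against early ND. The summed level of the 10 T cell markers was 295 to 386 CPM after late ND, 301 to 531 after early ND and 396 to 619.8 in untreated mice. Of these markers 2, Cd3g and Trbc2, were called lower against untreated mice (median -0.52). The 8 B cell markers had medians of -0.32 and -0.11 and the 6 NK cell markers -0.20 and -0.18 in the late ND comparisons, with 0 called, and the platelet markers -0.46 and -0.35, with 0 called. Of 5 skin gland markers 3 were tested in each and 0 called. Calls here are edgeR's, with a background of 2.48% lower and 2.5% higher against early ND mice, and 2.01% and 0.989% against untreated mice. DESeq2 called 7 and 0 neutrophil and 3 and 5 monocyte markers higher in the same comparisons. It called 7 and 7 erythroid, 4 and 4 hemoglobin, 2 and 6 T cell and 0 and 1 platelet markers lower. Its background was 4.53% lower and 5.5% higher, then 3.64% and 1.9%. No erythroid, hemoglobin, T cell or monocyte marker found was at 0 in every library. The part of these cells in the ribosomal protein result was not tested.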

How the data were processed

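The authors aligned paired 150-base reads of whole blood RNA to GRCm39 with STAR 2.7.9, sorted them with SAMtools 1.7 and ran HTSeq-count 0.13.5 to count pairs per gene, as the labels and the submitters' processing notes state. The labels also list the build mm10, while the study's methods name GRCm39 alone. The deposited values are raw counts per gene, 1 table per mouse. The strand setting, library kit and annotation release are not given in the sources used here. Of 55416 gene identifiers, 54749 matched GENCODE mouse release 39, which gave symbols, positions and lengths.

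For each pair of groups the counts were filtered (filterByExpr), scaled by TMM and tested with edgeR 4.0.16 (quasi-likelihood test, R 4.3.3) and p-values were adjusted by Benjamini-Hochberg, with genes called under 0.05; standard errors are the log2 fold change divided by the root of F. The members, lists and comparisons were chosen with earlier results of these data known. The genes named were the 5 called genes (at least 50 counts on average) with the largest log2 fold change in each direction (or, where none passed, the 3 with the smallest p), the members listed singly in the selection rule, paralogs and their main copies, 6 Diamond-Blackfan anemia genes (1 further gene is not reported here), the 5 highest per kilobase, the 5 that depart most from the family sum, and Rpl41, Rps6 and Rpl13a. On simulated counts the test recovered 82, 80 and 72 of 100 genes changed by a log2 of 1 in late against early ND, late ND against untreated and early ND against untreated mice (13141, 13469 and 11951 genes). Start sequences are RefSeq promoter windows (table build GRCm38.p6), placed by exact match in GRCm39. Alternatives were DESeq2 1.42.0, other scalings, filters, fits and libraries left out. The p-values measure the spread between these mice, since the labels give no litter or day.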

Additional observations from a re-analysis of the deposited data

Results flagged for a closer look

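Of 111 groups of 5 values examined (the 34 named genes, the summed level and its large and small subunit parts, in 3 groups), 8 held a library far from the other 4 by Dixon's test at the 95% level, and chance alone flags about 1 in 20. Late ND 5 had the lowest summed level of its group, 15128 TMM CPM, with the next library at 17912, and the lowest large subunit sum, 8370 CPM, with the next at 10136. In the same library Rps24 had 237 CPM, against 311 to 340 CPM in the other late ND mice. Early ND 3 had 190.3 CPM of Rps19, against 266 to 297 CPM in the other early ND mice. Untreated 1 was high in Rps26, at 216 CPM against 181 to 188 CPM. Among the sparse genes, Rpl39l had 2.01 CPM in untreated 1 and 0.218 CPM in early ND 5, where the other 4 libraries of each group had no count, and Rps4l had 3.97 CPM in early ND 4, against 0.994 to 1.51 CPM. No explanation was tested for these libraries.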

How the results depend on the processing

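The negative median of the group held under each scaling, filter, fit and left-out library tried except library totals, and the number of calls did not. For late ND against untreated mice, in place of 7 genes called lower (272 of 13547 over the whole table) there were 3 with the 15 libraries in 1 fit (203 of 13421), 19 where each library had to hold 10 counts (327 of 9745), 54 with DESeq2 (537 of 14768), 16 with a replicate block (377 of 13547), 0 by library totals (90 of 13547) and 0 without the libraries poor in 18S sequence (0 of 13051). For late against early ND, in place of 1 (330 of 13315) there were 0, 2, 19, 0, 0 and 0 under the same alternatives, where 362, 397, 650, 305, 137 and 0 genes of the whole table were called lower. With each library left out in turn the counts ran from 0 to 18 and from 0 to 19. By library totals 43 genes were called higher in late against early ND (8923 of 13315 over the whole table) and 2 in late ND against untreated mice (7484 of 13547). The log2 difference of the summed level was then 0.56 and 0.53, in place of -0.36 and -0.49. That scaling brought the median of all genes to 0.86 and 0.91, and 15 named values changed sign with a call in either fit. In late against early ND these were Rpl11 (0.63), Rpl22 (0.64), Rpl29 (0.59), Rpl35a (0.66), Rps19 (0.61), Rps21 (0.82), Rps26 (0.63), Rps27 (0.70), Rps6 (0.63) and Rpsa (0.68), and in late ND against untreated mice Fau (0.86), Rpl38 (0.15), Rpl39 (0.18), Rplp2 (0.27) and Rps12 (0.25). Of 1682 values of named genes under the alternatives, these 15 among them, 1557 kept direction and side of the threshold or had no call, 46 newly passed and 64 no longer passed. The deviations of same-numbered mice from their group means correlated with a mean r of -0.01 in late against early ND (-0.18 to 0.51) and -0.12 in early ND against untreated mice (-0.30 to 0.10). In late ND against untreated mice each of the 5 pairs was positive (0.03 to 0.61, mean 0.27) and 4 were over 0.1, a hint from the data that falls short of every pair. The labels do not say what a number marks, so the mice are taken to share only a number, and a call lost under the replicate block is not a weaker effect. In early ND against untreated mice no ribosomal protein gene passed the adjustment under any alternative, and with 1 library left out 0 to 1 were higher and 0 to 2 lower at an unadjusted p under 0.05.

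At these depths, genes at a few CPM rest on few counts, and 5 mice per group recovered 72 to 82 of 100 genes changed by a log2 of 1 in simulated counts, while most ribosomal protein genes differed by less than that.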

Other observations

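Other short protein-coding genes gave a count that belongs to no comparison above. Of 312 with at most 300 coding bases that were tested in late ND against untreated mice, 13 were called lower and 1 higher (background 2.01% and 0.989%). At an unadjusted p under 0.05 by edgeR 55 were lower and 12 higher (background 8.28% and 8.69%), with a median log2 fold change of -0.13. In late against early ND, 5 of 310 were called lower and 6 higher (background 2.48% and 2.5%). At an unadjusted p under 0.05, 39 were lower and 38 higher (background 9.33% and 14.4%), with a median of -0.01. The summed level of the 12 ribosomal protein genes of that length was 1576 ± 238 CPM (SD, n = 5) after late ND, 2378 ± 731 CPM (SD, n = 5) after early ND and 2844 ± 982 CPM (SD, n = 5) in untreated mice, and the 5 members with the highest levels made up 14.2% ± 0.459, 15.8% ± 1.42 and 16.5% ± 1.82 (SD, n = 5 each) of the family's level.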
